A study of Mus musculus with 8 samples.

Results

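The mature miRNAs mmu-miR-15a-5p, mmu-miR-15b-5p, mmu-miR-16-5p, mmu-miR-195a-5p and mmu-miR-497a-5p, written below without the species prefix, were followed in kidneys of diabetic db/db mice and their controls. They were taken by name from a single-colour Agilent array of mouse miRNAs and make up 5 of the 1881 miRNAs on it, all 5 of them among the 316 that could be tested. Kidney total RNA was measured on 8 arrays, 4 for control and 4 for db/db samples, all from males aged 28 weeks. The control samples carry the strain label C57BLKS/J Iar -m+/m+, and the db/db samples C57BLKS/J Iar -+Leprdb/+Leprdb, so that both share the C57BLKS/J background. The Leprdb allele disrupts the leptin receptor, and mice with 2 copies become obese and diabetic. The allele written m stands in the source and strain labels of the controls. The array titles call the same samples dbm, which leaves it unclear if a db allele was present in them. Separate animals are not named for the samples, and p-values therefore measure only the spread between these samples.

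miRNAs lower the output of mRNAs that pair with their seed, bases 2 to 8 from the 5′ end. The miR-15/16 family is a brake on the cell cycle: its members repress cyclins D and E and Cdk6, which drive the cell from G1 into S phase. They also repress the kinases Wee1 and Chek1, which hold back entry into mitosis, and Bcl2, which protects cells from apoptosis. Loss of the miR-15a and miR-16 locus is a frequent lesion in chronic lymphocytic leukaemia. miR-195 and miR-497 rise as heart and skeletal muscle cells leave the cell cycle, and miR-195 has been tied to apoptosis of podocytes, the filtering epithelium of the glomerulus.

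The 5 mature sequences are shown because the shared seed, in capitals, defines the family, while the bases after it are what the array can use to tell the members from each other. All 5 were matched by name to RefSeq mature sequences (GRCm38.p6) and are printed 5′ to 3′.
miR-15a-5p: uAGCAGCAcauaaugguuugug
miR-15b-5p: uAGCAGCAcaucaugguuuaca
miR-16-5p: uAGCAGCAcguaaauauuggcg
miR-195a-5p: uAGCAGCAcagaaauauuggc
miR-497a-5p: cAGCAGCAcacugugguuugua
The shared run extended from base 2 to base 9 in all 5. miR-16-5p and miR-195a-5p were the closest pair, with 19 of 21 aligned bases identical. miR-15a-5p and miR-15b-5p shared 18 of 22 bases. miR-497a-5p was nearest to miR-15a-5p, with 17 of 22 identical, and shared only 11 of 22 with miR-16-5p.

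By RefSeq annotation the members are encoded in clusters. Mir15a lies beside Mir16-1 within the noncoding RNA gene Dleu2. Mir15b lies beside Mir16-2 within Smc4, which encodes a subunit of condensin. Mir195a and Mir497 are neighbours, and Mir497 overlaps Mir497b. The array design placed a probe of miR-15a-5p at chr14:62250879-62250899 on the minus strand and one of miR-15b-5p at chr3:68813700-68813718 on the plus strand (mm9, the build named in the scanner files). It placed a probe of miR-16-5p at both loci, at chr14:62250736-62250753 on the minus strand and at chr3:68813844-68813861 on the plus strand, because both hairpins yield the same mature sequence. The signal of miR-16-5p is therefore that of both loci together. A probe of miR-195a-5p lay at chr11:70048566-70048584 and a probe of miR-497a-5p at chr11:70048234-70048253, both on the plus strand. For miR-497a-5p the design also lists a second position on chromosome 11, which falls on the mature miRNA in the newer build GRCm38.p6. The positions of the design may therefore not all be of build mm9.

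Each member had 2 probes of different length, with 15 spots each. The longer probe of each member is shown 5′ to 3′, because its length decides how much of the shared seed it reads; capitals mark the bases that pair with bases 2 to 8 of the miRNA.
miR-15a-5p probe: cacaaaccattatgTGCTGCTa
miR-15b-5p probe: tgtaaaccatgatgTGCTGC
miR-16-5p probe: cgccaatatttacgTGCT
miR-195a-5p probe: gccaatatttctgTGCTGC
miR-497a-5p probe: tacaaaccacagtgTGCTGC
All of them covered the 3′ part of the miRNA in full, and the probes of miR-16-5p read the least of the seed, 3 and 4 of its 7 bases. In an ungapped alignment the 18-base probe of miR-195a-5p failed to match miR-16-5p at 2 bases, and both probes of miR-16-5p failed to match miR-195a-5p at 3. The probes of miR-15b-5p and those of miR-497a-5p all failed to match miR-15a-5p at 4 bases. The 21-base probe of miR-15a-5p failed to match miR-15b-5p and miR-497a-5p at 4 bases as well. Cross-hybridisation between members was not tested.

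Signals are given as log2 of the scanner's processed signal after each array was scaled to a common 75th percentile, taken over the 269 miRNAs that every array detected. A miRNA was called higher or lower at a Benjamini-Hochberg adjusted p under 0.05 in limma across the 316 miRNAs detected on all 4 arrays of a group. All 5 members were detected on all 8 arrays, and all 15 spots of each of their probes were well above background on every array. The number of miRNAs detected per array was 305 to 352 in control and 289 to 358 in db/db samples. Before scaling, the log2 75th percentile was 8.40 to 8.67 in control and 8.57 to 8.73 in db/db samples. No miRNA spot was saturated. All arrays lay on 1 slide, with the controls in row 1 and the db/db samples in row 2, and thus the row on the slide cannot be told apart from genotype. The 9 tubule miRNAs listed were all detected on all 8 arrays. Among them, miR-192-5p had a log2 signal of 12.10 ± 0.07 in control samples (SD, n = 4). No other tissue was measured for comparison.

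In db/db kidneys the 5 members did not move together. miR-15b-5p rose by 17.7%, miR-16-5p fell by 12.2% and miR-195a-5p fell by 11.5%, while miR-15a-5p and miR-497a-5p did not pass the test, with changes of -0.01 and -0.14 on the log2 scale. Thus 1 of the 5 members was called higher, where 24.4% of all tested miRNAs were, and 2 were called lower, where 17.4% were. In total 3 of 5 were called, against 41.8% of the tested miRNAs. The groups did not overlap for 2 members, miR-15b-5p and miR-16-5p, against 41.5% of the tested miRNAs. The median change of the members was -0.14 and that of all tested miRNAs -0.02. In bulk kidney RNA, fewer cells that hold a miRNA and less of it per cell cannot be told apart.

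**Figure D1:**
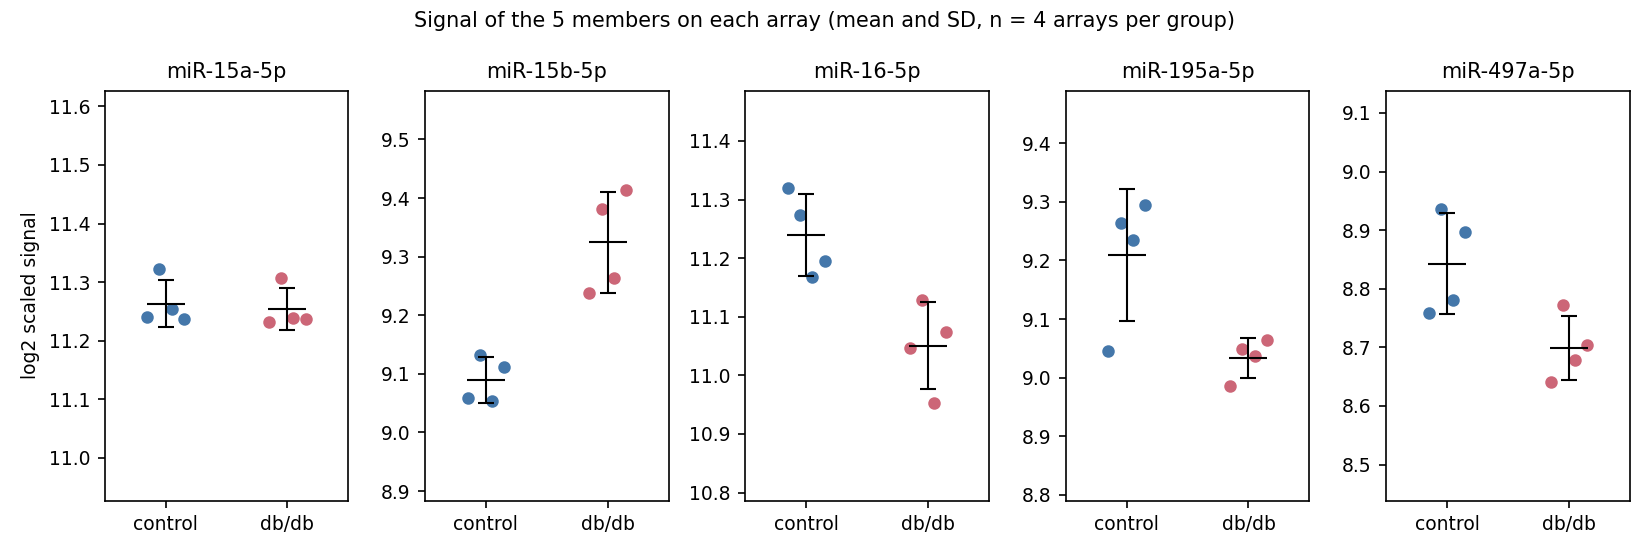
Log2 scaled signal of each member (vertical axis, own range for each panel) on the 4 control arrays (blue) and the 4 db/db arrays (red), with the mean and SD of each group as bars. The db/db arrays of miR-15b-5p all lie above its controls and those of miR-16-5p all lie below, whereas the groups coincide for miR-15a-5p, with means of 11.26 and 11.25.

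miR-15a-5p, the partner of miR-16 in the Dleu2 cluster, had nearly the same signal in both groups. Its log2 signal was 11.24, 11.32, 11.25 and 11.24 on control arrays 1 to 4 and 11.23, 11.31, 11.24 and 11.24 on db/db arrays 1 to 4. In each group replicate 2 was the highest and the remaining arrays were nearly equal, so the groups lay on top of each other. The change was -0.0099 ± 0.039 (SE), with a 95% interval of -0.10 to 0.08 (adjusted p = 0.846 in limma). Only 2.22% of the tested miRNAs had a smaller size of change. This depends on the scaling, since spike-in scaling gave a change of 0.17 and the unscaled signals 0.12, neither of which passed. That interval reaches neither the rise of miR-15b-5p nor the fall of miR-16-5p as estimated below.

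miR-15b-5p, the partner of miR-16 in the Smc4 cluster, had log2 signals of 9.06, 9.13, 9.05 and 9.11 on the control arrays and 9.24, 9.38, 9.26 and 9.41 on the db/db arrays. Every db/db array was above every control array, and within db/db replicates 2 and 4 were the higher pair. The mean rose from 9.09 ± 0.04 to 9.32 ± 0.09 (SD, n = 4 each), a log2 change of 0.24 ± 0.05 (SE) with a 95% interval of 0.12 to 0.35 (adjusted p = 0.00730 in limma). Both of its probes showed it, with log2 changes of 0.22 and 0.24 and no overlap between the groups on either. Without db/db replicate 2 the log2 change was 0.16 and no longer passed (adjusted p = 0.0568 in limma). Nor did it pass in the authors' value table (0.0591), or when the 75th percentile came from the whole set of 1881 miRNAs (0.842), a setting that left 34 miRNAs called in all.

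miR-16-5p, which is made from both the Dleu2 and the Smc4 cluster, had log2 signals of 11.32, 11.27, 11.17 and 11.19 on the control arrays and 11.05, 11.13, 10.95 and 11.07 on the db/db arrays. The highest db/db array, replicate 2, lay just under the lowest control array, replicate 3. The mean fell from 11.24 ± 0.07 to 11.05 ± 0.07 (SD, n = 4 each), a log2 change of -0.19 ± 0.05 (SE) with a 95% interval of -0.31 to -0.06 (adjusted p = 0.0236 in limma). Its probes gave -0.20 and -0.18, again with no overlap on either. Leaving out control replicate 2 ended the call (adjusted p = 0.0531 in limma), as did leaving out replicate 1 or replicate 3 of db/db (0.0550 and 0.0592). It also ended with no scaling between arrays, where the change was -0.06, and with scaling to labelling spike-ins, where it was -0.0070. With the 75th percentile over all miRNAs and with no filter on dim miRNAs the adjusted p was 0.962 and 0.135.

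miR-195a-5p had log2 signals of 9.05, 9.26, 9.23 and 9.29 on the control arrays and 8.99, 9.05, 9.04 and 9.06 on the db/db arrays. Control replicate 1 sat among the db/db arrays, while controls 2, 3 and 4 were above all of them. The mean fell from 9.21 ± 0.11 to 9.03 ± 0.03 (SD, n = 4 each), a log2 change of -0.18 ± 0.06 (SE) with a 95% interval of -0.31 to -0.04. That passed narrowly (adjusted p = 0.0467 in limma). The call held in 9 of 24 alternative settings. It was lost without control replicate 2, 3 or 4 or db/db replicate 1, 3 or 4, with adjusted p of 0.119, 0.0878, 0.108, 0.105, 0.0890 and 0.0775 in limma. With spike-in scaling its change was 0.0052.

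miR-497a-5p, the cluster neighbour of miR-195a, had log2 signals of 8.76, 8.94, 8.78 and 8.90 on the control arrays and 8.64, 8.77, 8.68 and 8.70 on the db/db arrays. Db/db replicate 2 lay between the 2 lower controls, replicates 1 and 3, so the groups overlapped at these arrays. The change was -0.14 ± 0.05 (SE), with a 95% interval of -0.27 to -0.02, and did not pass (adjusted p = 0.0654 in limma). It passed without control replicate 1 (log2 change -0.17, adjusted p = 0.0385 in limma) or without db/db replicate 2 (-0.23, adjusted p = 0.0313 in limma). Its shorter probe gave -0.17 with no overlap between the groups and its longer probe -0.13 with overlap.

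**Figure D2:**
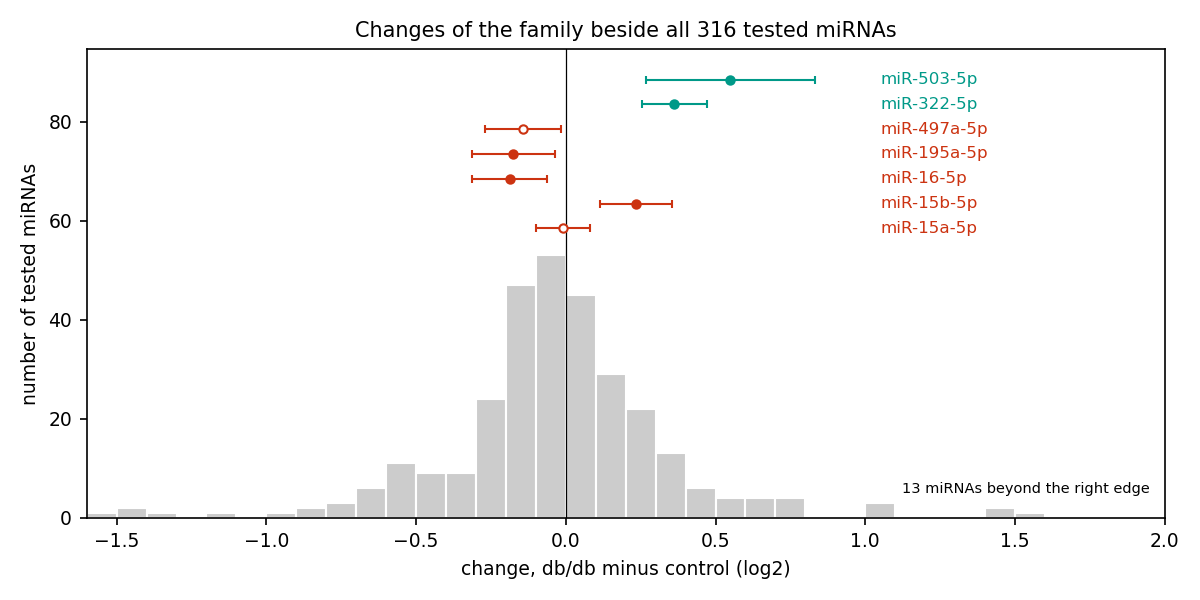
Log2 change, db/db minus control, of the 5 members (red) and of miR-322-5p and miR-503-5p (green) with 95% intervals, above a histogram of the changes of all 316 tested miRNAs (grey; vertical axis, number of miRNAs). Filled points passed an adjusted p under 0.05 in limma; the members span -0.19 to 0.24 and lie within the bulk of the histogram. Changes past the right edge are counted in the plot.

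The sizes of these changes were ordinary for these data. The median size of change over all tested miRNAs was 0.17 on the log2 scale, and a smaller size was seen in 61.7% of them for miR-15b-5p, 53.2% for miR-16-5p, 50.3% for miR-195a-5p and 43.0% for miR-497a-5p.

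Whether the members changed differently from each other was asked directly. The difference of 2 members' log2 signals on an array does not depend on any factor that scales that array, and it was compared between the groups for all 10 pairs with a 2-sided exact permutation test. The smallest p that 4 against 4 arrays allow is 0.0286, and at least 6 pairs must reach it for any to pass after adjustment over the 10. Exactly 6 did, each with no overlap between the groups and an adjusted p of 0.0476. The pairs reuse the same members and are not independent of each other. Of single tested miRNAs 41.5% did not overlap between the groups, and the share for pairs of other miRNAs was not computed. Levels of different probes are not comparable, so only the change of each difference is read.

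miR-15b-5p moved apart from each of the other members. The log2 difference of miR-15b-5p minus miR-16-5p was -2.26, -2.14, -2.11 and -2.08 on the control arrays and -1.81, -1.75, -1.69 and -1.66 on the db/db arrays. It was higher on all 4 db/db arrays, by 0.42 on average (95% interval 0.30 to 0.55; exact permutation test, adjusted p = 0.0476), the largest shift among the 10 pairs. Against miR-195a-5p the shift was 0.41 (0.28 to 0.55), and against miR-497a-5p it was 0.38 (0.29 to 0.47). The difference of miR-15a-5p minus miR-15b-5p was 2.18, 2.19, 2.20 and 2.13 on the control arrays and 1.99, 1.93, 1.97 and 1.82 on the db/db arrays, a shift of -0.24 (-0.35 to -0.14).

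miR-15a-5p also moved apart from miR-16-5p. Their log2 difference was -0.08, 0.05, 0.09 and 0.04 on the control arrays and 0.19, 0.18, 0.29 and 0.16 on the db/db arrays, a shift of 0.18 (95% interval 0.07 to 0.29). Against miR-497a-5p the shift of miR-15a-5p was 0.13 (0.04 to 0.22). Against miR-195a-5p it was 0.17 (0.03 to 0.30), with overlap at control replicate 1, and did not pass (exact permutation test, adjusted p = 0.0816).

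None of the 3 pairs among miR-16-5p, miR-195a-5p and miR-497a-5p passed. The shift was -0.01 for miR-16-5p minus miR-195a-5p (95% interval -0.24 to 0.21), -0.04 for miR-16-5p minus miR-497a-5p (-0.20 to 0.11) and -0.03 for miR-195a-5p minus miR-497a-5p (-0.13 to 0.07). Their adjusted p were 0.943, 0.698 and 0.607 in the exact permutation test. The intervals for the pairs with miR-16-5p leave room for unequal changes as large as the changes themselves. With quantile normalization the shift was -0.16 for miR-16-5p minus miR-195a-5p and -0.11 for miR-16-5p minus miR-497a-5p, the latter with no overlap between the groups, and neither passed (exact permutation test, adjusted p = 0.327 and 0.0571). The main interval of the cluster neighbours miR-195a-5p and miR-497a-5p is the narrowest of these intervals.

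**Figure D3:**
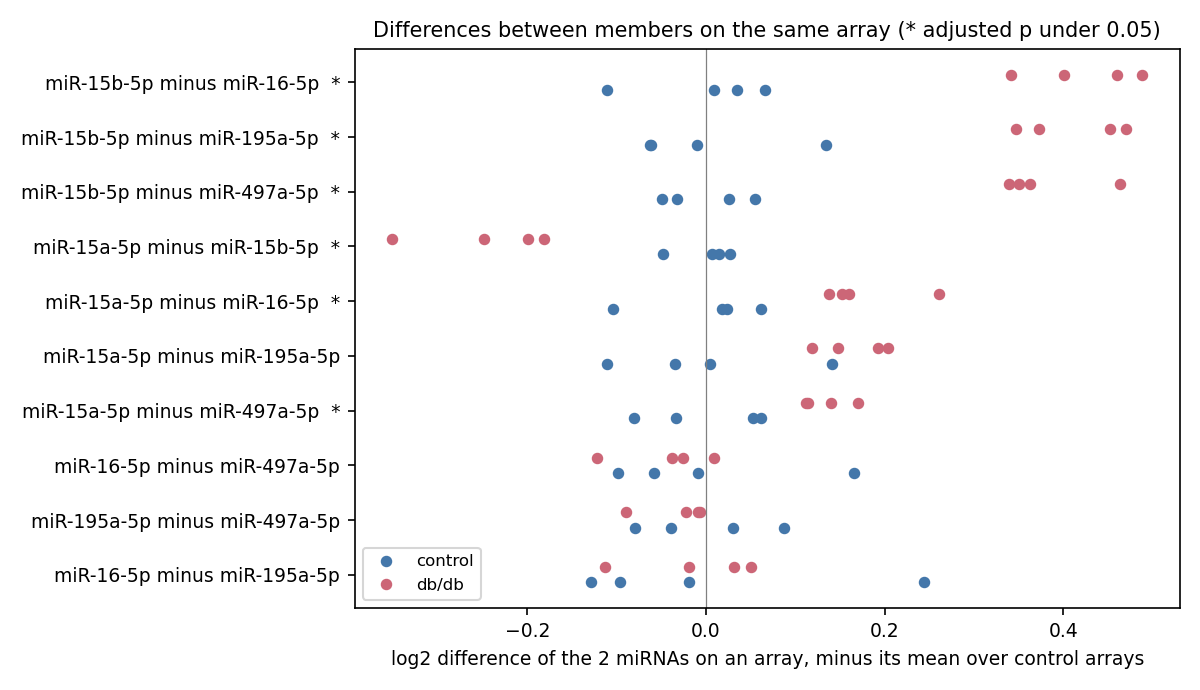
Log2 difference of each pair of members on each array, minus its mean over the control arrays (horizontal axis), for control (blue) and db/db (red) arrays; an asterisk marks an adjusted p under 0.05 in the exact permutation test. The 4 pairs that hold miR-15b-5p are separated most widely, by 0.24 to 0.42 on average, and the bottom 3 pairs overlap, as does miR-15a-5p minus miR-195a-5p.

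Counts of passing pairs turn on a narrow margin. Leaving out any 1 of the 4 db/db arrays left 5 pairs at the smallest p, so that 0 passed after adjustment. Leaving out a control array left 6 or 7 passing. Dropping an array cannot make separated groups overlap. With groups of unequal size, however, a pair without overlap can miss the smallest p. The counts with an array left out therefore do not measure lost separation. Quantile normalization and the longer probe of each member also left 5 at the smallest p and 0 passing. Each of the 6 pairs thus passed in 10 of the 16 alternatives in which pairs were computed. Before adjustment the 4 pairs that hold miR-15b-5p were at the smallest p, with no overlap, in all 16. miR-15a-5p minus miR-16-5p was at the smallest p in 15 and without overlap in 15. miR-15a-5p minus miR-497a-5p was at the smallest p in 10 and without overlap in 14.

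By cluster, the members encoded side by side are set out together. Within the Smc4 cluster miR-15b-5p was called higher and miR-16-5p lower. Within the Dleu2 cluster miR-15a-5p had a change near 0 and shared miR-16-5p with the former. At the Mir195a and Mir497 locus both changes were below 0, -0.18 and -0.14; miR-195a-5p passed and miR-497a-5p did not, and the difference between them did not pass. The other arms of the 6 hairpins, miR-15a-3p, miR-15b-3p, miR-16-1-3p, miR-16-2-3p, miR-195a-3p and miR-497a-3p, were detected on 0 of the 8 arrays. The 2 loci of miR-16 could thus not be told apart through their 3p arms either.

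Beyond the 5, RefSeq lists 5 more mouse miRNAs with the same seed. Of these miR-195b, miR-6342, miR-6353 and miR-6419 were detected on no array. The fifth, miR-322-5p, lies on the X chromosome next to miR-503-5p, a relative that slows the cell cycle through many of the same targets but has another base at the end of its seed. Both are shown with the seed in capitals for comparison with the members.
miR-322-5p: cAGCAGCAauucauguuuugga
miR-503-5p: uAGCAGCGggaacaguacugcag
The log2 signal of miR-322-5p was 8.43, 8.59, 8.58 and 8.59 on the control arrays and 8.93, 8.88, 8.92 and 8.90 on the db/db arrays, with no overlap. It rose by 0.36 ± 0.05 (SE; adjusted p = 0.000647 in limma). miR-503-5p was dim, with none of its spots well above background on at least 1 array and no detection on control replicate 2. Its log2 signal was 3.40, 3.00, 2.94 and 3.05 on the control arrays and 3.91, 3.60, 3.57 and 3.51 on the db/db arrays. It rose by 0.55 ± 0.12 (SE; adjusted p = 0.00765 in limma), but with normexp background correction the change was -0.0083. Its shorter probe was held at the floor of the signal, a log2 value of 1.48, on every control array. The change of 0.79 on that probe thus depends on the floor, and the longer probe gave 0.42.

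The miRNAs outside the members whose pattern over the 8 arrays was nearest to each member were found by the root mean square difference of log2 values, each centred on its own mean. For miR-15a-5p these were let-7g-5p, at 0.02, and miR-20b-5p, at 0.03. For miR-15b-5p they were miR-301a-3p, at 0.02, which rose by 0.24, and miR-1839-5p, also at 0.02, which rose by 0.21 (adjusted p = 0.00714 and 0.00660 in limma). Of the 22 alternatives computed for them, miR-301a-3p passed in 19, with changes down to 0.16, and miR-1839-5p in 18. The rise of miR-1839-5p shrank to 0.06 with normexp background correction and to 0.13 without db/db replicate 2. It passed in neither (limma, adjusted p = 0.216 and 0.0661). The nearest to miR-16-5p were miR-185-5p, at 0.03, and miR-22-5p, at 0.04, with changes of -0.14 and -0.17 that did not pass. let-7b-5p was near both miR-195a-5p and miR-497a-5p, at 0.05 and 0.04, followed by miR-218-5p for the former and let-7c-5p for the latter. The distance includes the difference between the groups, so a near miRNA has a similar change by selection.

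Other miRNAs that act on the cell cycle were called at shares near or below those of all tested miRNAs. The list held miR-34 and miR-449, which p53 and E2F1 induce, and the let-7 family and miR-26, which restrain growth. Also on it were miR-17, miR-20a, miR-106b, miR-93, miR-25, miR-221 and miR-222, which favour growth, and miR-24. Of 25 listed, 22 were tested. Of these 5 were called higher, where 24.4% of all tested miRNAs were, 2 were called lower, where 17.4% were, and 15 did not pass. Their median change was 0.04, against -0.02 for all tested miRNAs. miR-34a-5p, a target of p53 that halts cells in G1, rose by 0.64 ± 0.09 (SE; adjusted p = 0.000922 in limma). let-7d-5p rose by 0.17 and miR-34c-5p by 0.38, and miR-20a-5p fell by 0.16 (adjusted p = 0.0105, 0.0132 and 0.0151 in limma). Without db/db replicate 2 the calls of let-7d-5p and miR-34c-5p were lost (limma, adjusted p = 0.0889 and 0.0568). miR-34c-5p turned to -0.03 with normexp background correction, and miR-20a-5p to 0.02 with spike-in scaling. The 3 miR-449 miRNAs were detected on no array.

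Markers of other cells moved in part with the groups. Of 7 leukocyte miRNAs 6 were called lower, where 17.4% of all tested miRNAs were, and none higher. Their median change was -1.16. The log2 of their summed signal was 9.37 to 9.72 on the control arrays and 8.22 to 8.68 on the db/db arrays, without overlap. Of the 9 tubule miRNAs 6 were called higher, where 24.4% of all tested miRNAs were, and none lower. Their summed log2 signals were 14.30 to 14.40 in control and 14.50 to 14.55 in db/db samples. The 2 endothelial miRNAs did not pass, with sums of 11.93 to 12.03 in control and 11.83 to 11.89 in db/db samples that did not overlap. For comparison, the groups did not overlap for 41.5% of single tested miRNAs. The part of these cells in the changes of the members was not tested.

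miRNAs typical of red cells varied widely within both groups. Of the 3 erythroid miRNAs, 2 were tested and neither passed, and miR-486a-5p was detected on only 2 arrays. Their summed log2 signal was 11.59, 10.52, 9.46 and 9.90 on the control arrays and 10.34, 11.10, 9.34 and 11.81 on the db/db arrays. Those ranges overlapped almost wholly. The sum ranked the control arrays as miR-16-5p did, with replicate 1 highest and replicate 3 lowest. Among the db/db arrays replicate 3 was lowest for both, but replicate 4 was highest for the sum and replicate 2 for miR-16-5p. The part of red cells in the changes of the members was not tested. The 2 smooth muscle and pericyte miRNAs did not pass either, with a median change of -0.05. Of the striated muscle markers miR-133a-3p was detected on no array, and miR-1a-3p was called higher, with a change of 0.37 that was -0.0093 with normexp background correction.

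A factor common to a whole array moved all members alike. Taken against the median of the 316, the change was 0.01 for miR-15a-5p, 0.26 for miR-15b-5p, -0.16 for miR-16-5p, -0.15 for miR-195a-5p and -0.12 for miR-497a-5p. By arithmetic these relative changes stay the same without scaling and with spike-in scaling, because both differ from the main processing only by a factor per array. The median of all tested miRNAs moved from -0.02 to 0.10 without scaling and to 0.16 with spike-in scaling. Other settings can alter the relative changes. With quantile normalization they were 0.02 for miR-15a-5p, 0.36 for miR-15b-5p, -0.15 for miR-16-5p, 0.0019 for miR-195a-5p and -0.04 for miR-497a-5p. With normexp background correction they were 0.07, 0.28, -0.10, -0.08 and -0.06 in the same order. miR-15b-5p was still called higher, with a change of 0.36 without scaling and 0.42 with spike-in scaling, and 0 members were called lower under either.

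**Figure D4:**
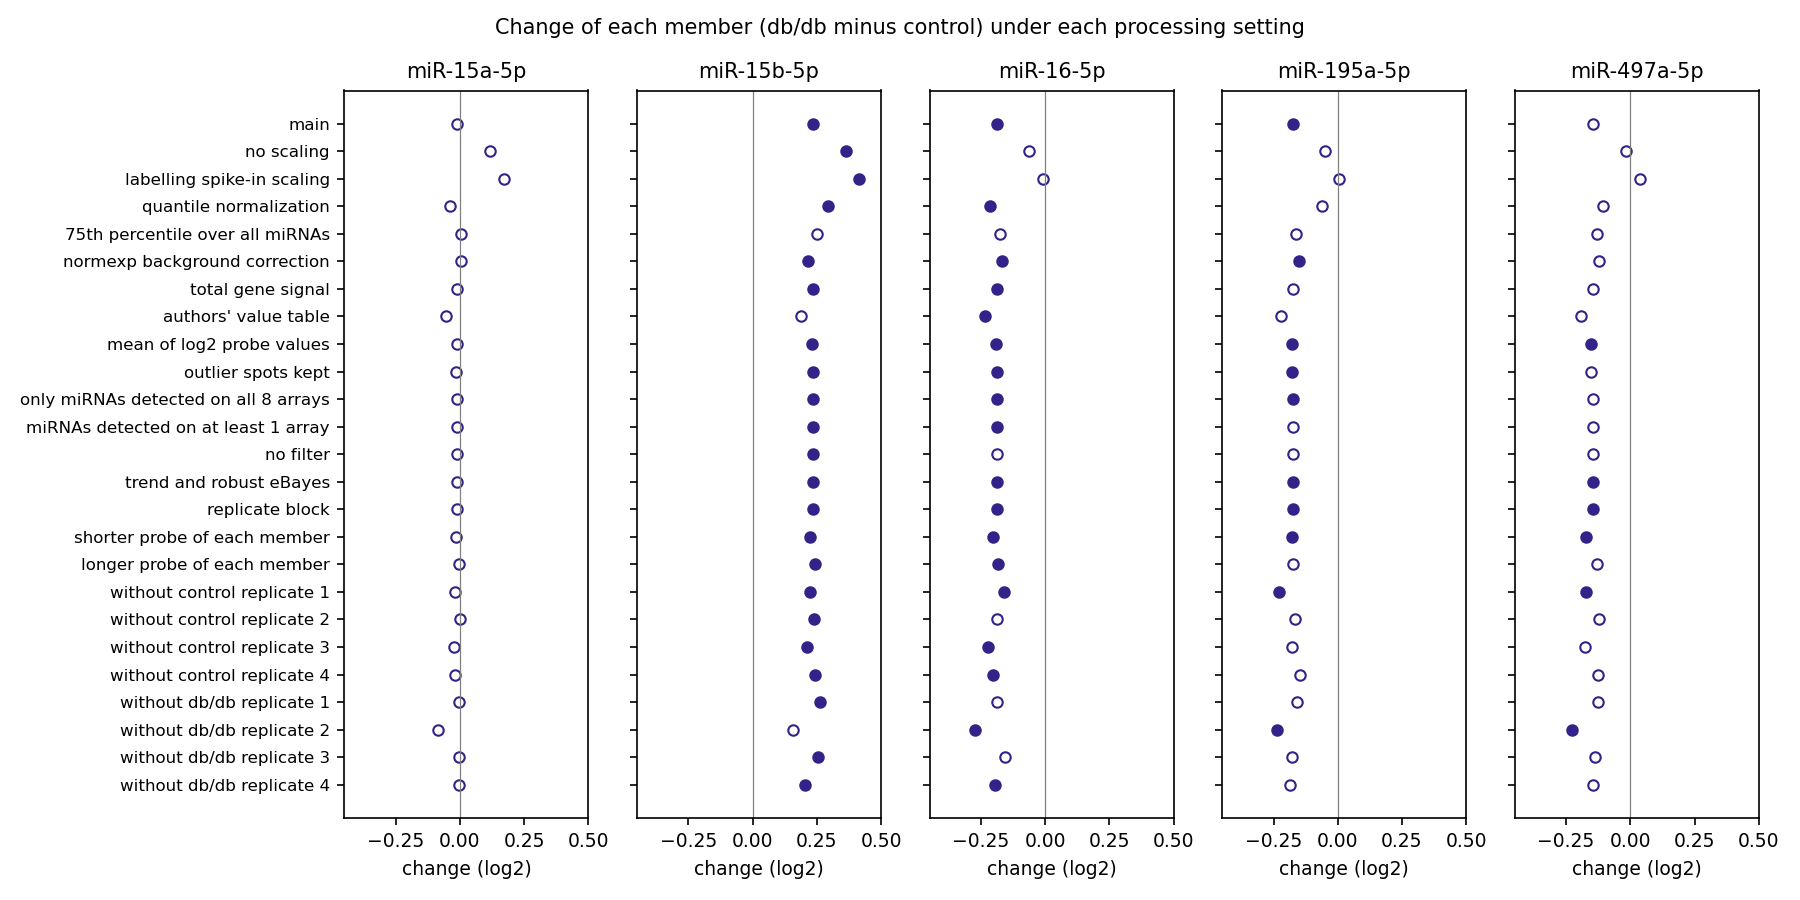
Log2 change, db/db minus control, of each member (panels) under the main processing and each of 24 alternatives (rows); filled points passed an adjusted p under 0.05 in limma. The change of miR-15b-5p is above 0 throughout, from 0.16 to 0.42, while those of miR-16-5p, miR-195a-5p and miR-497a-5p shrink to within 0.04 of 0 with spike-in scaling.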

How the data were processed

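The authors deposited scanner output with spot intensity values made by Agilent Feature Extraction 12.0.3.1, with spatial detrending on and background correction off, per the file headers. Each array received 100 ng of RNA labelled with Cy3, per the labels. The authors also deposited a value table that holds a linear ratio per miRNA for every array. Set against the total gene signal of the scanner files, it is linear, rises with signal and is centred on a value of each miRNA's own. How its factor per array was chosen stays unknown, so it served only as an alternative. Its medians were 1.11, 1.10, 1.10 and 0.980 for control arrays 1 to 4 and 0.857, 1.01, 0.994 and 0.947 for db/db arrays 1 to 4.

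Processed signals were averaged per probe without outlier spots, then per miRNA, scaled to the 75th percentile of the 269 miRNAs that all 8 arrays detected, held at or above a floor of 2.80 and put on a log2 scale. Detection on all 4 arrays of a group left 316 miRNAs, which were fitted with lmFit and eBayes (limma 3.58.1, R 4.3.3, with the package data.table, version 1.17.8) and called at a Benjamini-Hochberg adjusted p under 0.05. Pairs of members were compared with an exact permutation test over arrays; their 95% intervals come from a linear model with 2 groups. Of these steps only the limma fit and the permutation test were run on simulated log2 values. The number of arrays limits the precision.

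The miRNAs named were the 5 members, their other arms, miRNAs with the same seed, miR-322-5p and miR-503-5p, the 2 nearest in pattern to each member, and at most 4 of a list, called ones first. miR-192-5p, miR-486a-5p, miR-133a-3p and miR-1a-3p were named outside the limit on lists to describe the marker checks. The members and lists were chosen with earlier results of these data known. Alternatives covered scaling, signal, probe summary, filter, moderation, a replicate block and leaving out each array. Correlations of deviations from the group means between arrays with the same replicate number were -0.43, 0.41, -0.05 and -0.07, so the numbers were not taken to pair samples.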

Additional observations from a re-analysis of the deposited data

Results flagged for a closer look

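In 2 instances a single array stood far from the other three of its group, with a gap to the nearest array that took up most of the range of the group. miR-15a-5p had a log2 signal of 11.31 in db/db replicate 2 against 11.23 to 11.24 on the other db/db arrays, a gap of 0.903 of the range. miR-322-5p had 8.43 in control replicate 1 against 8.58 to 8.59 on the other control arrays, a gap of 0.949 of the range. Chance alone marks about 1 in 20 groups in this way, and 52 groups were looked at.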

How the results depend on the processing

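Among 24 alternatives miR-15b-5p stayed called higher in 21 and miR-16-5p lower in 17, while miR-195a-5p was called lower in 9, miR-497a-5p in 6 and miR-15a-5p in 0. The count of members called lower, 2, was 0 with no scaling, with spike-in scaling, with the 75th percentile over all miRNAs and with no filter, 1 with quantile normalization, the total gene signal, the authors' value table, miRNAs detected on at least 1 array and the longer probe, 3 with the mean of log2 probe values, trend and robust fitting and the shorter probe (limma, adjusted p of miR-497a-5p 0.0449, 0.0355 and 0.0199), and 0 to 3 with 1 array left out. The count called higher, 1, was 0 with the 75th percentile over all miRNAs and in the value table, and 0 to 1 with 1 array left out. Over all tested miRNAs 34 were called with the percentile over all miRNAs, against 132, and 114 to 153 with 1 array left out. Passing pairs, 6, were 0 with quantile normalization and with the longer probe, and 0 to 7 with 1 array left out. With the replicate block 144 miRNAs passed, and of the members 1 higher and 3 lower, miR-497a-5p included (limma, adjusted p = 0.0264). Small changes turned sign. With no scaling and spike-in scaling these were 0.117 and 0.171 for miR-15a-5p, 0.077 and 0.131 for miR-20b-5p, 0.0044 and 0.058 for let-7b-5p, 0.029 and 0.083 for miR-218-5p, and 0.048 and 0.102 for let-7c-5p. Spike-in scaling alone gave 0.0052 for miR-195a-5p, 0.037 for miR-497a-5p, 0.040 for miR-185-5p, 0.0082 for miR-22-5p and 0.024 for miR-20a-5p. miR-15a-5p was also 0.0043 with the percentile over all miRNAs and 0.0053 with normexp. Normexp gave -0.0083 for miR-503-5p, -0.028 for miR-34c-5p and -0.0093 for miR-1a-3p. let-7g-5p was -0.030 in the value table. The difference of miR-195a-5p minus miR-497a-5p shifted by 0.045 with quantile normalization. With 1 array left out the range was -0.085 to 0.00012 for miR-15a-5p, -0.056 to 0.028 for let-7g-5p, -0.055 to 0.069 for miR-16-5p minus miR-195a-5p and -0.077 to 0.011 for miR-16-5p minus miR-497a-5p. Apart from the arrays left out, the cause of these differences was not tested. The dim signal of miR-503-5p limits what can be read from it.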
